A study of Homo sapiens with 3 samples.

Results

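The genes that encode translation initiation factors were examined for the chromatin proteins CHD8 and TRRAP in neural stem cells of human origin. They were taken by name alone: every protein-coding gene of GENCODE release 44 on chromosomes 1 to 22 and X whose symbol begins with EIF and a digit from 1 to 6. This gave 55 of 19970 genes. The rule also takes in regulators and relatives that share the prefix, namely the eIF2 kinases, the eIF4E-binding proteins, the eIF5A genes, EIF1AD, the exon junction helicase EIF4A3 and the copies EIF2S3B and EIF5AL1.

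ChIP-seq, the sequencing of DNA that an antibody pulls down with its protein, was carried out on wild-type (WT) neural stem cells that descend from H9, 1 established human embryonic stem cell line. All chromatin was fixed first with 2 mM disuccinimidyl glutarate (DSG), which links proteins to each other, then with 1% formaldehyde, and was sheared in 14 sonication cycles. There was 1 CHD8 library and 1 TRRAP library, and the control IgG library is not analysed here. CHD8 is an ATP-dependent chromatin remodeler, TRRAP is the large scaffold through which transcription factors such as MYC recruit histone acetyltransferases, and the study title names both in the regulation of MYC and E2F target genes.

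Initiation begins when eIF2, bound to GTP, carries the initiator tRNA to the small ribosomal subunit, which eIF1, eIF1A, eIF3 and eIF5 prepare. The eIF4F complex, made of the cap-binding protein eIF4E, the scaffold eIF4G and the helicase eIF4A, brings the mRNA, the small subunit scans to a start codon, and eIF5B joins the large subunit. eIF2B reloads eIF2 with GTP. Stress kinases that phosphorylate eIF2 block this reloading, and the eIF4E-binding proteins hold eIF4E away from eIF4G until mTOR phosphorylates them. Many initiation factor and ribosomal protein mRNAs begin with a C and a run of pyrimidines, the signature of mRNAs under mTOR control, and several of these genes are known MYC targets.

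The promoter window reached 1 kb to either side of the start of a gene's canonical transcript, and a gene was counted as occupied when a deposited peak overlapped that window. Where several peaks did, the one with the highest fold stands for the gene. Fold is the authors' linear ratio of signal at the peak over background, and it is compared only within 1 list. The CHD8 list held 23393 peaks with a median fold of 9.31 and the TRRAP list 14735 with a median fold of 8.17. The number of reads behind them is unknown. Folds move in steps, by a median of 0.442 for CHD8 and of 0.478 for TRRAP, so many peaks share a value: the 34 TRRAP folds described here took 17 distinct values. As there are no replicates, no difference between genes or groups was tested. The interval given with a share is Wilson's at 95% and covers counting error alone. Of 10 neural stem cell marker genes, SOX2, NES and PAX6 among them, 10 had a CHD8 promoter peak and 7 a TRRAP promoter peak. Occupancy is not expression, so these counts do not check the cells' identity.

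CHD8 lay at nearly all of these promoters and TRRAP at most of them. A CHD8 peak was found at 50 of the 55 genes (90.9%, interval 80.4% to 96.1%), where 56.1% of all coding genes had one. A TRRAP peak was found at 34 (61.8%, 48.6% to 73.5%), against 35.1% of all coding genes. All 34 also had CHD8, so both proteins were at 61.8% of the initiation factor genes and at 34.1% of all coding genes. CHD8 alone was at 16 genes, TRRAP alone at 0 and neither protein at 5. When only peaks above the median rank of their list were kept, CHD8 was at 45 genes (81.8%), against 42.6% of all coding genes, and TRRAP at 17 (30.9%), against 19.6%.

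Most of these promoters are rich in CpG, a property that itself goes with occupancy. The CpG ratio, observed over expected CpG within 500 bp of the start, was at least 0.6 at 53 of the 55. Among the 13248 coding genes with such a ratio, 77.8% had CHD8 and 50.2% had TRRAP, and among the 53 the shares were 94.3% (84.6% to 98.1%) and 64.2% (50.7% to 75.7%). Given a CHD8 peak, TRRAP was also present at 68.0% of the initiation factor genes (54.2% to 79.2%), and at 60.7% of all coding genes, which lies inside that interval.

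**Figure D1:**
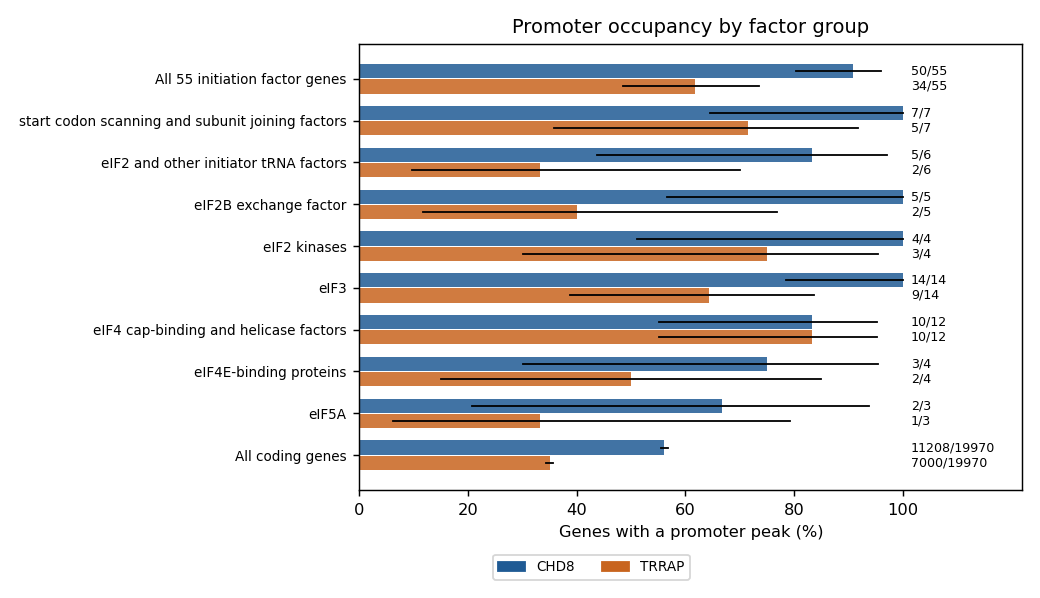
Share of genes with a CHD8 (blue) or TRRAP (orange) promoter peak, in percent, for all 55 initiation factor genes, for each factor group and for all 19970 coding genes, with Wilson 95% intervals and the counts at the right. CHD8 is at all members of 4 groups with 4 or more genes, while TRRAP runs from 2 of 6 eIF2 and initiator tRNA genes to 10 of 12 eIF4 genes, with intervals that overlap.

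The median CHD8 fold at these genes was above that at coding promoters in general, but its interval reached down to that value. The median TRRAP fold was not above that at coding promoters in general. The median CHD8 fold was 15.3 (25th to 75th percentile 10.9 to 21.6), against 12.0 over all coding genes with a CHD8 promoter peak. In the order of those genes the median member stood at the 70.0th percentile, with 22 of 50 in the top 25% and 11 in the top 10%. The median TRRAP fold was 8.41 (7.69 to 11.0), against 8.65, and the median member stood at the 44.7th percentile, with 15 of 34 above the median of all coding genes and 3 in the top 10%. CHD8 peaks had a median width of 754.5 bp, against 638 bp, and TRRAP peaks 287.5 bp, against 269 bp.

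**Figure D2:**
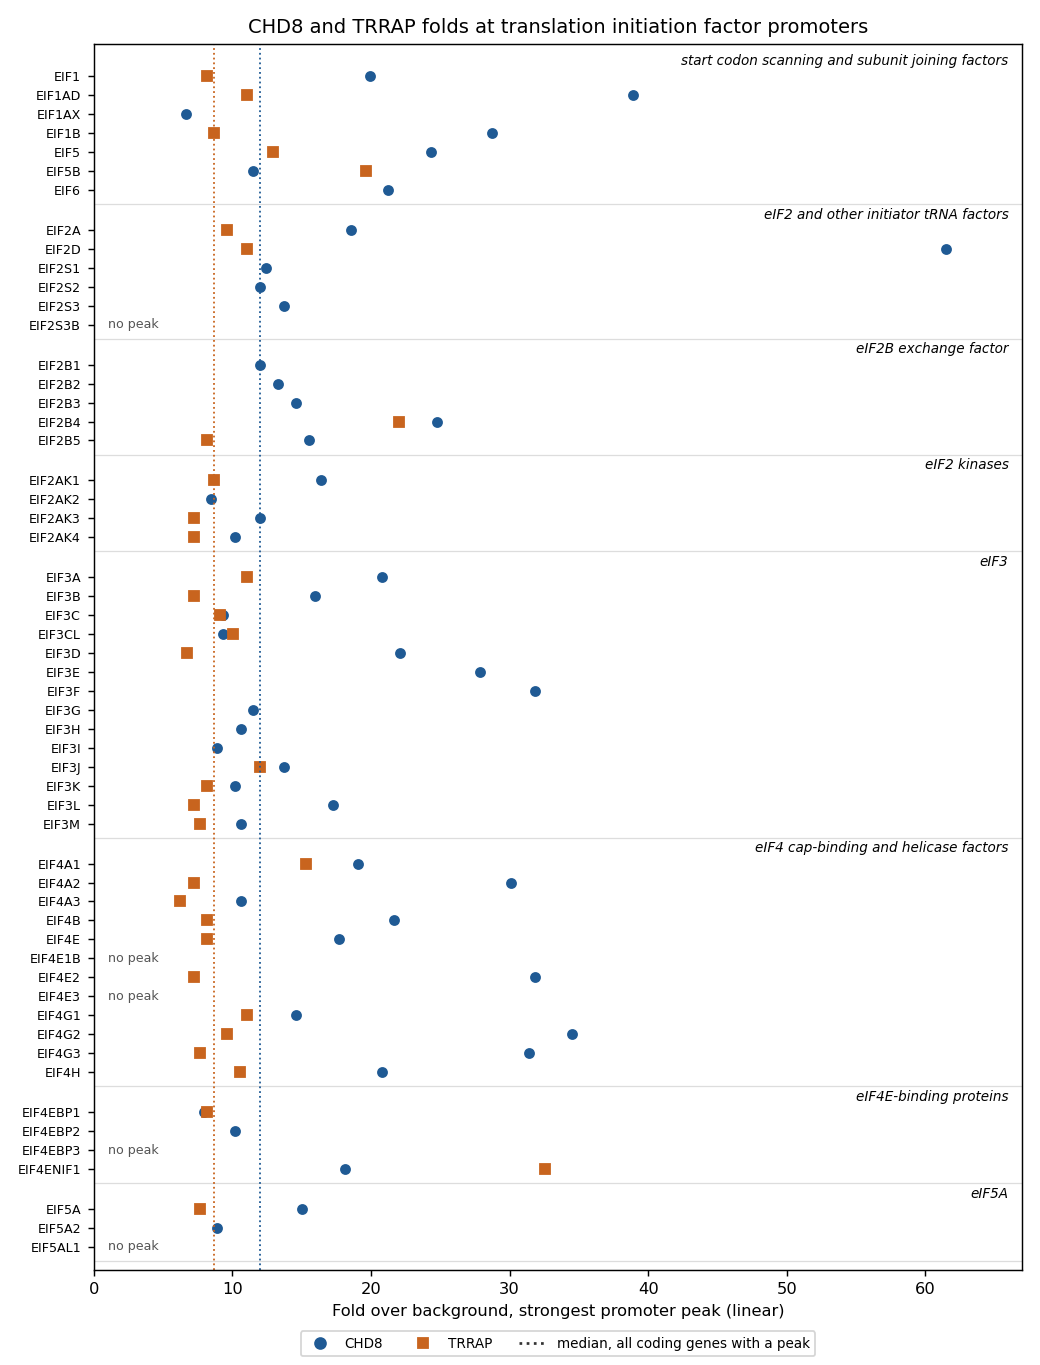
Fold over background (linear) of the strongest CHD8 (blue circles) and TRRAP (orange squares) promoter peak of each of the 55 genes, by factor group, with dotted lines at the medians of all coding genes with a peak, 12.0 for CHD8 and 8.65 for TRRAP. EIF2D has the highest CHD8 fold, 61.5, EIF4ENIF1 the highest TRRAP fold, 32.5, and 5 genes have no peak of either protein.

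The group of factors that scan for the start codon and join the subunits, which here includes the relative EIF1AD, had CHD8 at 7 of 7 genes. TRRAP was at 5 of 7. EIF1AD, named for its eIF1A domain, had the highest CHD8 fold of the group and the second highest of all 55 genes, 38.9 (−log10 q 115, width 1039 bp). It had TRRAP peaks of equal fold, 11.0, at −39 bp (negative is upstream of the start) and at −658 bp, the latter 33 bp from 1 of the annotated starts of its head-to-head neighbour BANF1, whose canonical start is at −346 bp. EIF1, which guards the choice of start codon, had a CHD8 fold of 19.9 with a TRRAP fold of 8.17. Its close paralogue EIF1B had 28.8 and 8.65. Both TRRAP values lie at or below the median of coding promoters, while both CHD8 values lie well above theirs.

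EIF5, the factor that makes eIF2 hydrolyse its GTP, had a CHD8 fold of 24.3 over 1444 bp with a TRRAP fold of 12.9, the fifth highest TRRAP fold of the 55 genes. EIF5B, the GTPase of subunit joining, stood at the 94.3rd percentile of coding genes by TRRAP fold and at the 45.2nd by CHD8 fold. Its TRRAP fold was 19.6 (−log10 q 41.1), the third highest, with the summit at −144 bp. Its strongest CHD8 peak, fold 11.5, had its summit at −1151 bp, 72 bp from an annotated start of the divergent gene TXNDC9, and a second CHD8 peak of fold 11.1 was at −120 bp, within the TRRAP peak's extent. EIF6, which keeps the large subunit from joining too early, had CHD8 at 21.2 and no TRRAP peak within 170244 bp. EIF1AX, the X-linked gene of eIF1A, had the weakest and narrowest CHD8 peak of all, fold 6.66 over 274 bp, starting 344 bp downstream of the start, and no TRRAP peak. EIF1 and EIF1AX, whose products bind the small subunit together, thus differed in both proteins.

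Among the genes for eIF2 and other carriers of initiator tRNA, 5 of 6 had CHD8 and 2 of 6 had TRRAP. EIF2D, a factor that places tRNA on the ribosome without eIF2, had the strongest CHD8 peak of all 55 genes, with a fold of 61.5 (−log10 q 209, rank 56 of the 23393 CHD8 peaks). That peak was 898 bp wide with its summit 40 bp downstream of the start. The TRRAP peak there was of moderate fold, 11.0, with a summit at 6 bp. EIF2A, another carrier that is distinct from eIF2, had folds of 18.6 and 9.60.

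The 3 genes of the eIF2 trimer itself had CHD8 and no TRRAP. The CHD8 folds were 12.4 at EIF2S1, which encodes the subunit that stress kinases phosphorylate, 12.0 at EIF2S2 and 13.7 at EIF2S3, which encodes the GTP-binding subunit. These values lie close to 12.0, the median of all coding promoters with CHD8. The EIF2S2 summit lies in sequence found 2 times in the genome, so its fold may not belong to this gene alone. The nearest TRRAP peak lay 118494, 118155 and 29121 bp away. At EIF2S1 the strongest CHD8 summit, at −340 bp, lies toward the head-to-head neighbour ATP6V1D, whose start is at −524 bp, and a second CHD8 peak of fold 7.54 covers the EIF2S1 start. EIF2S3B, a copy of EIF2S3 on chromosome 12, had neither protein, and the nearest peaks were 107481 bp (CHD8) and 107551 bp (TRRAP) away.

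The start regions of EIF2S3 and EIF2S3B are printed because the copy keeps nearly the same letters without a peak of either protein. The first 2 lines give the 30 bases around each start, with the first 5 bases of the transcript in capitals. They lie at chrX:24054946-24054975 and chr12:10505880-10505909, both on the plus strand of GRCh38.
EIF2S3 start: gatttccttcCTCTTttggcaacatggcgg
EIF2S3B start: gactttcttcCTCTTttggcaacatggcgg
The next lines give 30 bases around the GC box word CCCCGCCC, in capitals, whose first base lies at −59 bp in both genes, at chrX:24054886-24054915 and chr12:10505820-10505849, plus strand.
EIF2S3 GC box: cgtctccgcttCCCCGCCCcgcactaggac
EIF2S3B GC box: ggcctccgcatCCCCGCCCcgcactaggac
The genes have the same base at 28 of the 30 positions around the start and at 27 of the 30 around the GC box. The CHD8 peak of EIF2S3, at chrX:24054286-24055067, covers the whole of its printed stretches.

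All 5 subunit genes of the exchange factor eIF2B had CHD8, and 2 of 5 had TRRAP. EIF2B4 carried the strongest peak of both proteins in the group, with a CHD8 fold of 24.8 (−log10 q 61.9) with a TRRAP fold of 22.02 (−log10 q 49.2), the second highest TRRAP fold of the 55 genes. SNX17 starts at −278 bp on the opposite strand, and the CHD8 summit, at −236 bp, was closer to the SNX17 start than to its own. EIF2B5, which encodes the catalytic subunit, had folds of 15.5 and 8.17. The other subunit genes EIF2B1, EIF2B2 and EIF2B3 had CHD8 folds of 12.0, 13.3 and 14.6 and no TRRAP peak, the nearest being 31621, 28269 and 177916 bp away. Counting eIF2 and eIF2B together, TRRAP was thus at 2 of the 8 subunit genes and CHD8 at 8. Over all coding genes the shares were 35.1% and 56.1%. The pool leaves out EIF2A and EIF2D, which had both proteins, and 8 genes are too few to set it apart.

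The eIF2 kinases had CHD8 at 4 of 4 and TRRAP at 3 of 4, with TRRAP folds of 7.21 to 8.65, at or below the median of coding promoters. EIF2AK1, the haem-regulated kinase HRI, was highest with a CHD8 fold of 16.4 with a TRRAP fold of 8.65. EIF2AK3, the endoplasmic reticulum stress kinase PERK, had CHD8 peaks of equal fold, 12.0, at −519 and 133 bp, and a TRRAP peak of 7.21 at −521 bp. The upstream CHD8 summit lay 100 bp from the start of the divergent noncoding transcript EIF2AK3-DT, and the TRRAP summit 2 bp further off. EIF2AK4, the amino acid sensor GCN2, had folds of 10.2 and 7.21. EIF2AK2, the kinase PKR that double-stranded RNA activates, had CHD8 at 8.43 and no TRRAP peak.

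eIF3 is the largest initiation factor and the platform on which the small subunit complex is built. CHD8 was at all 14 of its genes (100%, 78.5% to 100%) and TRRAP at 9 (64.3%, 38.8% to 83.7%). Of all coding genes with a CHD8 promoter peak 60.7% had TRRAP, which lies inside that interval. The genes of this single complex were thus split by TRRAP about as coding genes with CHD8 were in general. The CHD8 fold ranged from 8.87 at EIF3I to 31.8 at EIF3F, with a median of 12.6. The TRRAP fold ranged from 6.73 at EIF3D to 12.0 at EIF3J, with a median of 8.17. EIF3F, the strongest CHD8 gene of the complex (−log10 q 87.5, width 715 bp, summit at −170 bp), had no TRRAP peak within 93799 bp. EIF3E, with the second highest CHD8 fold of the complex at 27.9, had none either.

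The 9 eIF3 genes with both proteins ran over a wide range of CHD8 strength. The large scaffold subunits were EIF3A, with a CHD8 fold of 20.8 with a TRRAP fold of 11.0, EIF3B, with 15.9 and 7.21, and EIF3C, with 9.31 and 9.12. EIF3D, whose product can itself bind the mRNA cap, had a CHD8 fold of 22.1, and its TRRAP fold, 6.73, was among the lowest of the 55 genes. EIF3L had 17.3 and 7.21, EIF3J, the loosely bound subunit, 13.7 and 12.0, EIF3M 10.6 and 7.69, and EIF3K 10.2 and 8.17. The remaining subunit genes with CHD8 alone were EIF3G, at 11.5, EIF3H, at 10.6, and EIF3I, at 8.87. None of the 5 eIF3 genes without TRRAP had a TRRAP peak within 21 kb: the nearest lay 21668 bp from EIF3I and 23463 bp from EIF3G.

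EIF3CL is a near-identical copy of EIF3C on chromosome 16. The CHD8 fold was 9.31 at both and the TRRAP folds were 9.12 at EIF3C and 10.1 at EIF3CL. The CHD8 peak was 559 bp wide at EIF3C and 827 bp at EIF3CL, and the TRRAP peak 349 and 153 bp. The 32-base words around all 4 summits occur 2 times in the reference genome. Reads may therefore not be assignable to 1 of the copies, and these values are taken as those of the pair. Counted once, and without EIF2S3B and EIF5AL1, CHD8 was at 49 of 52 genes and TRRAP at 33.

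At the letters of the start itself, 10 of the 14 eIF3 genes began with a C followed by 4 pyrimidines at the annotated canonical start, which 4.59% of all coding genes did. These are EIF3A, EIF3C, EIF3CL, EIF3D, EIF3E, EIF3F, EIF3H, EIF3K, EIF3L and EIF3M. Of the 10, EIF3C and EIF3CL share their sequence, 7 had TRRAP and 3 (EIF3E, EIF3F and EIF3H) had CHD8 alone, so this start was found with and without TRRAP. The following lines show the 30 bases around the start of 7 of them, with the first 5 transcribed bases in capitals. Each is written on its gene's strand in GRCh38: chr10:119080798-119080827 (minus), chr16:28711454-28711483 (plus), chr22:36529147-36529176 (minus), chr11:7987327-7987356 (plus), chr19:38619178-38619207 (plus), chr22:37849409-37849438 (plus) and chr11:32583821-32583850 (plus).
EIF3A start: gtggctccttCCTTTccgtctctggccggc
EIF3C start: gacccgccttCTCTCtcggcgtttccgctg
EIF3D start: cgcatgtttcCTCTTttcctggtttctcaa
EIF3F start: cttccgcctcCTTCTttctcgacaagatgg
EIF3K start: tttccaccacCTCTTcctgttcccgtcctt
EIF3L start: tcatttcgctCTTTCcggcggtgctcgcaa
EIF3M start: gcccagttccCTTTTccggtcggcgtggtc
The eIF3 genes without it were EIF3B, EIF3G, EIF3I and EIF3J.

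Over all 55 genes, 16 (29.1%, 18.8% to 42.1%) had such a start. Outside eIF3 they were EIF2A, EIF2D, EIF2S3 and EIF2S3B, where the copy keeps the letters of its source without a promoter peak, and EIF4A2 and EIF4B. Among the 84 cytosolic ribosomal protein genes it was 59 (70.2%), and among the 38 aminoacyl-tRNA synthetase genes, whose products charge tRNAs, it was 2 (5.26%). Of the 34 genes with both proteins 32.4% had the start, and of the 16 with CHD8 alone 25%, with intervals that overlap (19.1% to 49.2% and 10.2% to 49.5%). Over all coding genes with both and with CHD8 alone the shares were 6.07% and 5.13%.

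The eIF4 group holds the factors that bind the cap and unwind the mRNA leader, and here also the exon junction helicase EIF4A3. Both proteins were at 10 of its 12 genes (83.3%, 55.2% to 95.3%), and each eIF4 gene with CHD8 also had TRRAP. The group had high CHD8 folds, with a median of 21.2, and wide CHD8 peaks, with a median of 1074.5 bp. The scanning and joining group had the same median fold, 21.2, and a median width of 929 bp. Over all coding genes with both proteins the medians were 13.3 and 745 bp. EIF4G2, which encodes an eIF4G relative that lacks the eIF4E-binding part, had the highest CHD8 fold of the group, 34.5, over 1595 bp (−log10 q 98.1), with a TRRAP fold of 9.60. The scaffold genes proper differed: EIF4G1 had a CHD8 fold of 14.6 with a TRRAP fold of 11.0, and EIF4G3 had 31.4 and 7.69. The TRRAP peak was 629 bp wide at EIF4G1 and 232 bp at EIF4G3.

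The helicase genes differed as well. EIF4A2 had the widest CHD8 peak of the 55 genes, 1823 bp, with a fold of 30.1, with a TRRAP fold of 7.21. Its paralogue EIF4A1 had a CHD8 fold of 19.03 with a TRRAP fold of 15.3, the fourth highest. EIF4A1 carried a pair of sites for each protein. One lay upstream, with a CHD8 summit at −281 bp (fold 19.03) and a TRRAP summit at −277 bp (11.0). The other lay at 928 bp (18.1) and 868 bp (15.3), next to an annotated alternative start of EIF4A1 at 897 bp. EIF4A3, the helicase of the exon junction complex, had the lowest TRRAP fold of the 55 genes, 6.26, over 135 bp, and its TRRAP summit lies in sequence found 2 times in the genome. Its CHD8 fold was 10.6.

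EIF4E, the cap-binding protein gene, had a CHD8 fold of 17.7 over 1186 bp and TRRAP peaks of equal fold, 8.17, at 164 and 809 bp. EIF4E2, a cap-binding relative known as a repressor, had a CHD8 fold of 31.8, equal to that of EIF3F, with a TRRAP fold of 7.21. The helicase cofactor genes EIF4B and EIF4H had CHD8 folds of 21.7 and 20.8 and TRRAP folds of 8.17 and 10.6. The eIF4 genes without either protein were the other cap-binding relatives. EIF4E1B, known from oocytes, had its nearest CHD8 peak 11165 bp away, and EIF4E3 had none within 140625 bp. Neither is CpG-poor: the CpG ratio was 0.810 at EIF4E1B and 0.895 at EIF4E3.

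Of the eIF4 promoters, 5 of 12 held an exact E-box CACGTG, the word bound by MYC with MAX and by related factors, in the 300 bp from 250 bp before to 50 bp after the start. Those 5 were EIF4A3, EIF4B, EIF4E, EIF4G1 and EIF4H, and EIF4E and EIF4G1 had 2 each. They are printed because the study is about MYC targets and the MYC-binding scaffold TRRAP. Each line gives 30 bases on the gene's strand in GRCh38 with the E-box in capitals. The positions are, in order, chr4:98929341-98929370 and chr4:98929188-98929217 (minus), chr3:184314450-184314479 and chr3:184314527-184314556 (plus), chr12:53006422-53006451 (plus), chr7:74174145-74174174 (plus) and chr17:80147232-80147261 (minus).
EIF4E distal: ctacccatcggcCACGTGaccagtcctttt
EIF4E proximal: ggacatatccgtCACGTGgccagaagctgg
EIF4G1 distal: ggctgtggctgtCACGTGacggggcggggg
EIF4G1 proximal: ccctgcgccggtCACGTGggggcgccggct
EIF4B: gcccgctataatCACGTGattgcctcatcc
EIF4H: acgccgccgcacCACGTGggctgcagagcg
EIF4A3: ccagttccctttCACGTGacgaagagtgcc
The first bases of these boxes lie at −225, −72, −144, −67, −22, −199 and −121 bp. At EIF4E the proximal box is inside both peaks and the distal box inside neither. The 120 bases just before the EIF4E start, at chr4:98929134-98929253 on the minus strand, follow with the E-box and the CCAAT word in capitals.
EIF4E upstream: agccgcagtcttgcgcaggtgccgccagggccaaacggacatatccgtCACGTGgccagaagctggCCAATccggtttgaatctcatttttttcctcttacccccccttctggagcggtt

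The eIF4E-binding proteins, which restrain eIF4E, had CHD8 at 3 of 4 and TRRAP at 2 of 4. EIF4ENIF1, whose product carries eIF4E into the nucleus and to RNA granules, had the highest TRRAP fold of the 55 genes, 32.5 (−log10 q 83.9, rank 205 of the 14735 TRRAP peaks), over 709 bp. Its CHD8 fold was 18.1, and both summits were upstream, at −317 bp for TRRAP and −259 bp for CHD8, which is 9 and 49 bp from the start of a noncoding transcript on the opposite strand. EIF4EBP1, the main mTOR-controlled repressor, had folds below the medians of coding promoters, 7.98 for CHD8 and 8.17 for TRRAP. EIF4EBP2 had CHD8 at 10.2 and its nearest TRRAP peak 21294 bp away. EIF4EBP3 had neither: the nearest CHD8 peak was 9514 bp and the nearest TRRAP peak 9742 bp from its start.

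eIF5A is the only protein known to carry hypusine, and despite its name it acts mainly in elongation. EIF5A had a CHD8 fold of 15.1 at −663 bp with a TRRAP fold of 7.69 at −635 bp, 34 and 6 bp from an annotated alternative start of the gene. EIF5A2, its paralogue, had CHD8 alone at 8.87. The copy EIF5AL1, whose start region occurs 2 times in the genome, had neither, with the nearest peaks 66134 bp (CHD8) and 66637 bp (TRRAP) away. Of the 5 genes without either protein, EIF2S3B and EIF5AL1 are copies of another member, and the CpG ratio was under 0.6 at EIF5AL1 (0.531) and EIF4EBP3 (0.585).

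The 1 kb limit decided few calls. The occupied gene whose peak lay farthest out was EIF3B, with the edge of its TRRAP peak 662 bp from the start, and for CHD8 it was EIF1AX at 344 bp. Just outside the limit came EIF4EBP3, at 9514 bp. A window of 500 bp left out the TRRAP peaks of EIF3B and EIF5A, whose edge was 553 bp from the start, and gave TRRAP at 32 genes (58.2%).

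CHD8 peaks were wider and of higher fold at genes that also had TRRAP. Among the 50 CHD8-occupied genes, the CHD8 peak was at least 1000 bp wide at 16 of the 34 with TRRAP and at 0 of the 16 without, whose widths ran from 274 to 807 bp. The medians were 928 and 590 bp, and the median CHD8 folds 17.9 and 12.0. Over all coding genes the same difference was present: 26.0% of the 6802 with TRRAP and 6.81% of the 4406 without had a CHD8 peak of 1000 bp or more, the median widths were 745 and 499 bp, and the median folds 13.3 and 10.6. A CHD8 fold of at least 15 was found at 23 of the 34 genes with TRRAP and at 3 of the 16 without, which were EIF3E, EIF3F and EIF6. This fold limit was not counted over all coding genes, so the difference cannot be called particular to the initiation factor genes.

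**Figure D3:**
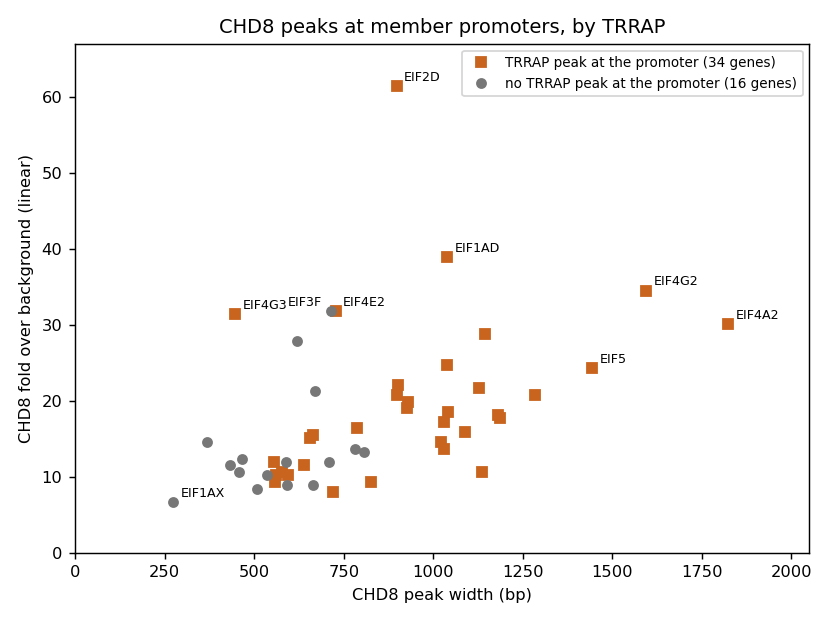
CHD8 fold over background (linear) against CHD8 peak width in bp for the 50 CHD8-occupied genes, as orange squares where TRRAP also had a promoter peak (34 genes) and grey circles where it had none (16 genes). All 16 CHD8 peaks of 1000 bp or more belong to genes with TRRAP, and EIF3F is the strongest CHD8 peak without it, at a fold of 31.8.

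How strong the proteins were went together only weakly. Over the 34 genes with both, Spearman's rho between the CHD8 and TRRAP folds was 0.16, close to the 0.14 over all 6802 coding genes with both. This is a description across genes of 1 cell population, with many tied values. The genes at the extremes were above the median of coding promoters for both proteins. The highest CHD8 fold, 61.5 at EIF2D, went with a TRRAP fold of 11.0, at the 71.7th percentile. The highest TRRAP fold, 32.5 at EIF4ENIF1, went with a CHD8 fold of 18.1, at the 80.4th percentile.

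The peaks centred on starts, and the TRRAP peaks overlapped the CHD8 peaks. The strongest CHD8 peak covered the canonical start at 45 of 50 genes and the strongest TRRAP peak at 22 of 34. CHD8 summits had a median offset of 14.5 bp (interquartile range −93.5 to 132.5 bp), against −31 bp for all coding genes, and TRRAP summits of −57.5 bp (−163 to 38.3 bp), against −47 bp. By the annotation of the canonical transcript, 24 CHD8 summits were upstream, 14 in an intron, 10 in 5′ UTR exons and 2 in coding exons, and 20 TRRAP summits were upstream, 6 in an intron, 7 in 5′ UTR exons and 1 in a coding exon. The upstream shares were 48.0% for CHD8 and 58.8% for TRRAP, against 58.3% and 63.3% over all coding genes with such a peak. These shares are given without an interval, so no difference is read from them. The strongest peaks of both proteins overlapped at 32 of 34 genes, and when every promoter peak was counted at 34 of 34. The exceptions among the strongest peaks were EIF5B and EIF4A1, where another CHD8 peak overlapped the TRRAP peak. The summits of the strongest peaks lay a median of 182 bp apart, against 105 bp over all coding genes with both, and within 50 bp at 7 genes. How often peaks cover the start, overlap or have summits within 50 bp was not counted over all coding genes. These counts can therefore not be called particular to the initiation factor genes.

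**Figure D4:**
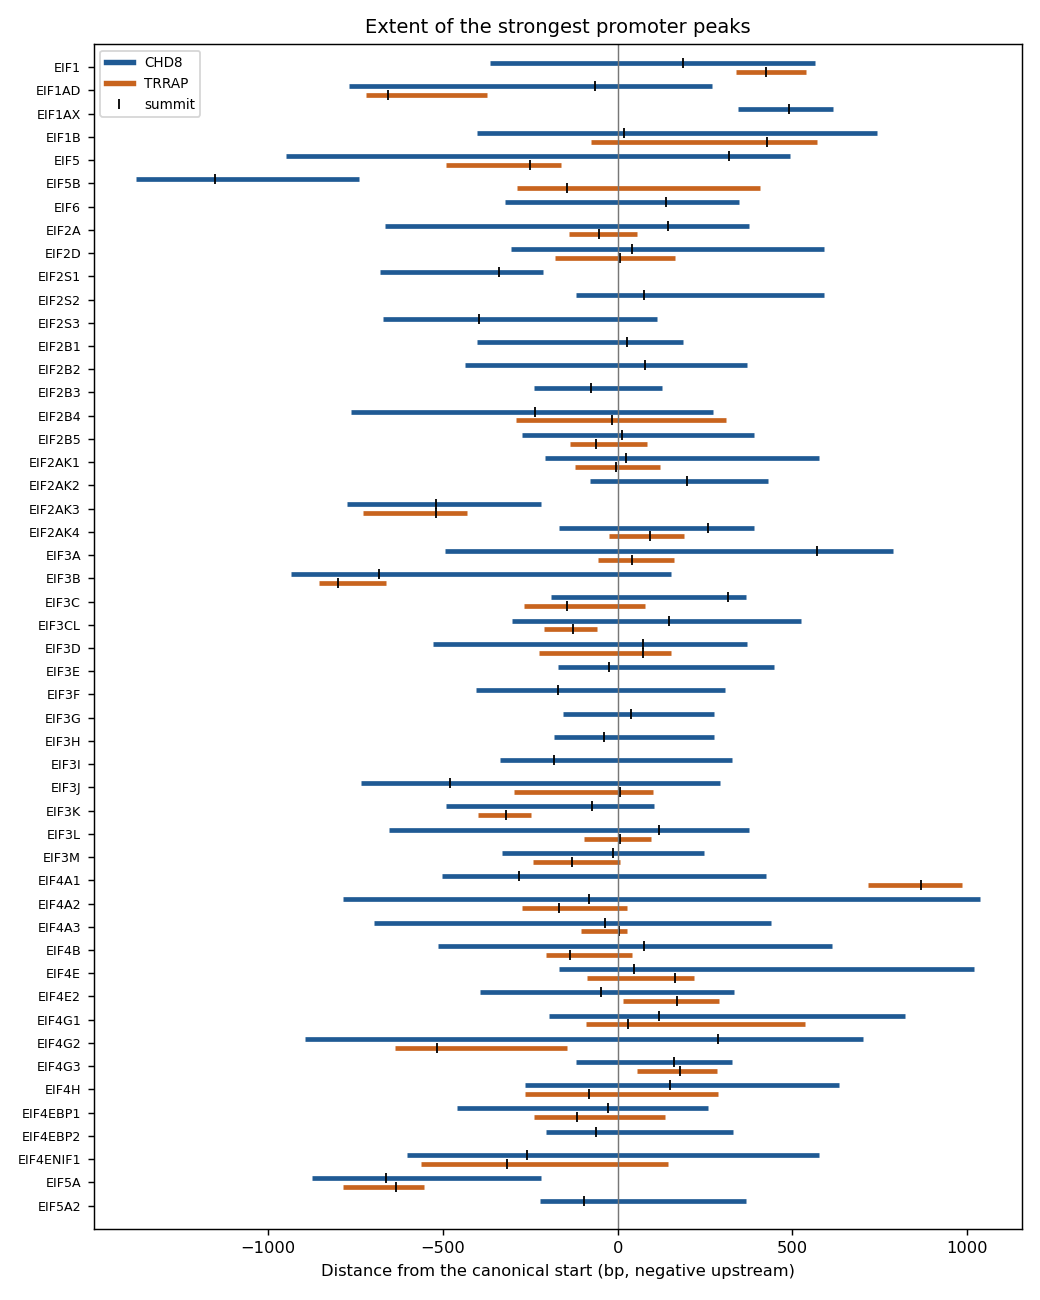
Extent of the strongest CHD8 (blue) and TRRAP (orange) promoter peak at each of the 50 occupied genes, by distance from the canonical start in bp (negative upstream), with a tick at each summit. At 32 of the 34 genes with both, the TRRAP bar overlaps the CHD8 bar, and the farthest summit is that of CHD8 at EIF5B, at −1151 bp.

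Summits far from the canonical start mostly lay near another annotated start. Of the 7 CHD8 summits more than 400 bp away, 5 were within 250 bp of some annotated start, and of the 8 such TRRAP summits, 6 were. Over all coding genes the shares were 58.4% of 1481 and 55.3% of 1233. At EIF3B the summits at −683 bp (CHD8) and −801 bp (TRRAP) lay 58 and 60 bp from an alternative start of EIF3B itself. At EIF3J the CHD8 summit at −480 bp lay 14 bp from the divergent noncoding transcript EIF3J-DT, and its TRRAP peaks, of equal fold, were at 8 and −511 bp. At EIF3K the TRRAP summit, at −319 bp, lay 13 bp from an annotated start of MAP4K1 on the opposite strand. The exceptions beyond 400 bp for CHD8 were EIF3A, at 571 bp, and EIF1AX, at 489 bp, and for TRRAP EIF1, at 425 bp, and EIF1B, at 428 bp.

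Occupancy was counted separately for members with a close neighbour. The canonical start of a coding gene on the opposite strand lay within 1 kb of 8 members, and of these 7 had CHD8 and 4 had TRRAP. A peak there cannot be assigned to 1 of the genes. Among the 46 members with no other coding start within 1 kb, 42 had CHD8 and 29 had TRRAP. The same split was not counted over all coding genes, so these counts stand without a comparison.

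Coding transcripts that start more than 1 kb from the canonical start are annotated in 30 members, at 47 separate places in all. Leaving aside peaks already counted in the canonical window, a CHD8 peak lay within 1 kb of 4 of these places, in EIF2AK3, EIF3E, EIF3H and EIF4ENIF1, and a TRRAP peak within 1 kb of 2. Alternative starts of all coding genes were not counted, so no share stands beside these. In EIF4A1, at 1019 bp, and EIF4G2, at 1050 bp, such a start lay inside a CHD8 peak of the canonical window, with folds of 18.1 and 7.98. At EIF4ENIF1 the start at −6266 bp had a TRRAP fold of 20.6 and a CHD8 fold of 8.87. At EIF2AK3 the start at −64012 bp had folds of 9.60 and 9.31. EIF4ENIF1 thus had this TRRAP peak besides the one of fold 32.5 in its canonical window. The summit of the latter lay 222 bp from the nearest EIF4ENIF1 start and 9 bp from a noncoding start on the opposite strand.

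Exact words for promoter factors were searched on both strands of the 300 bp windows. The E-box, CACGTG, which reads the same on both strands, was in 14 of the 55 windows (25.5%, 15.8% to 38.3%), against 8.75% of all coding genes and 10.3% of those with a CpG ratio of at least 0.6. It was in 7.14% of ribosomal protein and 10.53% of aminoacyl-tRNA synthetase windows. The ETS word CCGGAAGT was in 13 windows (23.6%, 14.4% to 36.3%), against 6.15% of all coding genes and 8.67% of the CpG-rich ones. It was in 15.5% of ribosomal protein and 15.8% of synthetase windows, both inside that interval, and 5 of the 13 are eIF3 genes (EIF3C, EIF3CL, EIF3G, EIF3I and EIF3L). The NRF1 word GCGCATGCG, whose complement overlaps it, and the YY1 word AAGATGGCG were in 4 windows each (7.27%, 2.86% to 17.3%), against 2.70% and 2.84% of all coding genes and 3.92% and 3.94% of the CpG-rich ones, the latter pair inside that interval. The YY1 word was in 10.7% of ribosomal protein and 13.2% of synthetase windows. The GC box word GGGCGGGG was in 26 (47.3%), against 34.0% of all and 45.5% of CpG-rich coding genes, and CCAAT in 22 (40.0%), against 36.01%. The E2F words TTTGGCGC and TTTCGCGC were in 0 of 55 windows, which allows a share of up to 6.53% by the Wilson interval, against 1.55% of all coding genes. An exact match is a description of letters and not of binding, and sites with a mismatch are missed.

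**Figure D5:**
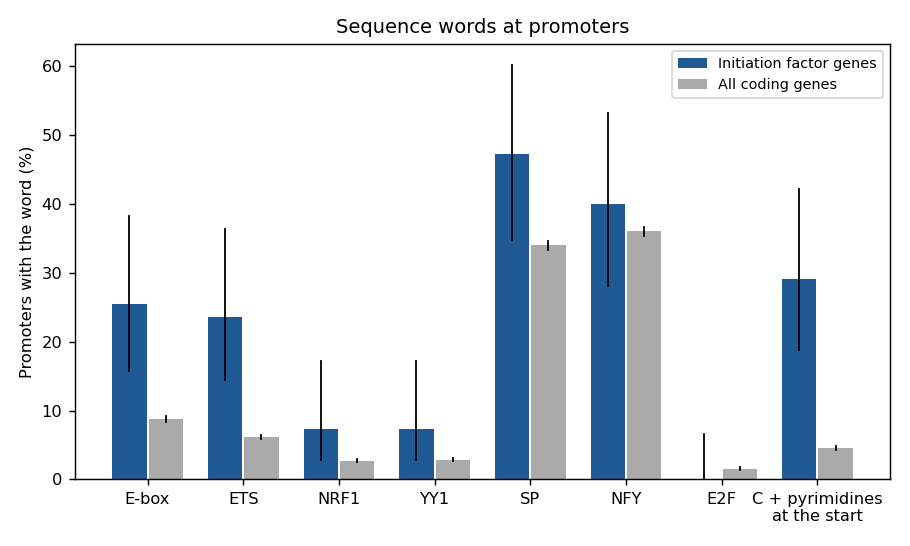
Share of promoter windows, from 250 bp before to 50 bp after the canonical start, that hold each exact word, and, at the right, of canonical starts that begin with C and 4 pyrimidines, in percent with Wilson 95% intervals, for the 55 initiation factor genes (blue) and all 19970 coding genes (grey). The E-box is in 25.5% against 8.75%, the ETS word in 23.6% against 6.15%, and the pyrimidine start in 29.1% against 4.59%.

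Most E-boxes lay inside the CHD8 peaks, but the search window made this likely in advance. The window spans only 250 bp before to 50 bp after the start. The strongest CHD8 peak covered the start at 45 of 50 genes, and the strongest TRRAP peak at 22 of 34. Other words were not counted in this way, so the counts below do not tie the E-box to either protein. The 14 genes held 17 E-boxes. Of the 13 with a CHD8 peak, 12 had at least 1 box inside the strongest one, the exception being EIF2AK2. Of the 9 with a TRRAP peak, 7 had a box inside it, EIF3K and EIF4A3 being the exceptions. The nearest box was a median of 104 bp from the CHD8 summit and 116 bp from the TRRAP summit, and at EIF4EBP1 it was 21 bp from the TRRAP summit. An E-box was in 9 of the 34 genes with both proteins (26.5%, 14.6% to 43.1%) and in 4 of the 16 with CHD8 alone (25%, 10.2% to 49.5%). Over all coding genes it was in 11.2% of those with both and in 9.19% of those with CHD8 alone. EIF4EBP3 held an E-box 13 bp before its start and had neither protein.

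Other genes of translation were also mostly occupied by CHD8. Of 33 further genes that act with the initiation factors or in elongation and termination, such as the poly(A)-binding protein gene PABPC1 and the elongation factor gene EEF2, 31 had CHD8 (93.9%, 80.4% to 98.3%), 24 had TRRAP (72.7%, 55.8% to 84.9%) and 23 had both. The 84 ribosomal protein genes had CHD8 at 82 (97.6%) and TRRAP at 56 (66.7%, 56.1% to 75.8%), and the 38 aminoacyl-tRNA synthetase genes had CHD8 at 38 and TRRAP at 20 (52.6%, 37.3% to 67.5%). All 3 TRRAP intervals overlap that of the initiation factors. Median CHD8 folds were 16.4, 17.9 and 14.2 in these lists, beside 15.3 at the initiation factors. Median TRRAP folds were 9.60, 7.93 and 9.84, beside 8.41.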

How the data were processed

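The deposited peak lists of 1 CHD8 and 1 TRRAP ChIP-seq library were used. HISAT2, MACS2 2.1.1.20160309 and GRCh38 are named in the submitters' processing notes. The control and filters of peak calling are not given in the sources used here. Per peak, the authors deposited a fold (a linear ratio over background), −log10 p and −log10 q values, a score and a summit position. By their names, the lists were limited at a false discovery rate of 0.0001 for CHD8 and 0.001 for TRRAP. Read depth is unknown, and counting intervals do not cover it.

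Peaks were joined to GENCODE 44 canonical starts by an overlap of at least 1 bp with the 1 kb window, a step tested on simulated peaks. Copy number is how often each 32-base word of the 101 bp around a summit occurs in the reference, as a median. Sequences were read from the reference genome. Python 3.11.15, numpy 2.4.6, pandas 2.3.3, scipy 1.17.1, pysam 0.24.0, numba 0.67.0 and matplotlib 3.10.9 were used.

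The genes, their groups and the comparison lists were chosen with earlier results of these data known. Every gene of the rule is named. Full values were reserved for the 5 highest folds per protein, the highest CHD8 fold of each group, genes without a peak, the genes nearest the window limit, the widest and narrowest CHD8 peaks and the copy pairs. Alternatives varied the window, the start sites, the peak that stands for a gene, the threshold and the members.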

Additional observations from a re-analysis of the deposited data

How the results depend on the processing

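Across 11 alternatives, 87 of 90 recomputed values stayed within the 95% interval of the reported one, Wilson's for shares and, for medians, the binomial interval on their rank over genes. The 3 that did not came from keeping only peaks above the median rank of their list: TRRAP, and both proteins, were then at 30.9% of the genes in place of 61.8%, and the median TRRAP fold was 11.0 in place of 8.41, both of which follow from dropping the weaker peaks. The CHD8 share ran from 81.8% to 94.2%, its median fold from 14.6 to 17.3 and its median width from 727 to 807 bp. The median CHD8 summit offset ran from −1 to 39.5 bp, so its sign changed with the setting. A stricter TRRAP limit (q at most 0.0001), leaving out genes with multi-copy summits and leaving out genes with another coding start within 1 kb were chosen after seeing the data. No paired analysis was possible because each antibody had 1 library and no test was made. Without replicates, a gene without a peak cannot be told apart from one whose signal fell below the caller's threshold.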
